A study of Mus musculus with 10 samples.

Results

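The genes described here encode heat shock proteins and factors of the cellular stress response: Hspa1a, Hspa1b, Hspb1, Dnajb1, Hsph1, Hsp90aa1, Hspa8, Hspa5, Ddit3 and Atf3. They were chosen by symbol and are 10 of the 24421 different gene symbols in the deposited count files. RNA was sequenced from a cell fraction labelled as microglia, which had been separated by density gradient from papain-dissociated cortex, with 3 libraries of WT, 4 of APP/PS1 and 3 of APP/PS1+N-AS mice, all aged 9 months. Each library was made from pooled mice, so that the library is the replicate. APP/PS1 mice carry a mutant human amyloid precursor protein (hAPP695swe) and a mutant presenilin-1 (M146V) as transgenes, and WT mice carry neither. APP/PS1+N-AS mice are APP/PS1 mice that were given N-AS (N-acetyl sphingosine) under the skin every day for 8 weeks from 7 months of age, at 30 mg/kg. The paper describes the APP/PS1 mice that it compares with these as given vehicle, which the sample titles do not name. The comparisons ask how the fraction differs with the transgenes, and how it differs with N-AS in mice that carry them. The total count of a WT library was between 8805804 and 19133654, that of an APP/PS1 library between 12474941 and 19432075, and that of an APP/PS1+N-AS library between 12755933 and 19035817.

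Heat shock proteins are chaperones that bind unfolded proteins and help them fold or be degraded. When unfolded proteins accumulate in the cytosol, heat shock factor 1 binds heat shock elements in the promoters of the inducible chaperone genes and their transcription increases within minutes. Unfolded proteins in the endoplasmic reticulum (ER) are sensed by the unfolded protein response, and the integrated stress response joins it to other stresses through phosphorylation of eIF2α, with Ddit3 and Atf3 among its target genes.

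The labels were checked first. The methods of the study state that only male mice were used, yet reads of Xist, the RNA that silences an X chromosome in females, numbered between 5253 and 11188 in each of the 4 APP/PS1 libraries. The APP/PS1+N-AS libraries 1, 2 and 3 held 7024, 8848 and 29 such reads, and the WT libraries 37, 37 and 33. The Y-linked genes Ddx3y, Uty, Kdm5d and Eif2s3y together had 1492, 3181 and 3700 reads in WT, 495, 690, 13 and 13 in APP/PS1, and 470, 863 and 2377 in APP/PS1+N-AS. The APP/PS1+N-AS library 3 therefore resembled WT in these genes, and between the other APP/PS1+N-AS or the APP/PS1 libraries and WT, the transgenes and the sex of the pooled mice cannot be told apart. The APP/PS1 libraries 1 and 2 and the APP/PS1+N-AS libraries 1 and 2 held reads of both kinds. For the 10 genes, results of APP/PS1+N-AS are given with and without library 3.

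The fraction also held RNA of other cell types. The 18 microglia markers, of which Ctss (852 CPM) was the most abundant, summed to 1087, 1277 and 1652 CPM in WT, 3963, 4227, 5459 and 5204 CPM in APP/PS1, and 2997, 3228 and 2336 CPM in APP/PS1+N-AS. The 14 neuron markers summed to 9379.6, 10783 and 11711 CPM in WT, 9532, 8268, 5654 and 6814 CPM in APP/PS1, and 10335, 8710.02 and 9825 CPM in APP/PS1+N-AS, with Meg3 (4864 CPM) the most abundant. These sums are above those of the microglia markers in every library. Without Meg3 the neuron markers summed to 3453, 3530 and 7014 CPM in WT, 4380, 3943, 3553 and 4041 CPM in APP/PS1, and 4072, 3710 and 4680 CPM in APP/PS1+N-AS. The sums without Meg3 were below those of the microglia markers in APP/PS1 2, 3 and 4, and highest in WT 3. None of the markers was at 0 in every library. Of the microglia markers, 15 of 18 were higher in APP/PS1 than in WT (edgeR, adjusted p under 0.05), where 3.47% of all genes tested passed in either direction, with a median log2 difference of 1.49. In such a bulk fraction, fewer cells of a type and less RNA per cell cannot be told apart.

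The libraries are numbered 1 to 10 in the labels. Numbers 7 to 10 belong to WT 3, APP/PS1 3, APP/PS1 4 and APP/PS1+N-AS 3, and the lower numbers to libraries 1 and 2 of the 3 groups. What the numbers stand for is not stated. Several of the 10 genes followed these numbers more closely than the groups, so values within each range of numbers are given beside the group values. Within 7 to 10, the only APP/PS1+N-AS library is number 3, which differed from APP/PS1 3 and 4 in Xist and Y-linked reads. In this range N-AS and the sex of the pooled mice cannot be told apart, and a term for library numbers does not adjust for sex.

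All 10 genes passed the filter on low counts and were read from a quasi-likelihood fit across 18727 genes (edgeR, with Benjamini-Hochberg adjusted p-values and a threshold of 0.05). Levels are in CPM, counts scaled to the library total with TMM factors, and differences are on the log2 scale. In APP/PS1 against WT, 649 genes or 3.47% passed, and 0 of the 10 did. With N-AS, in APP/PS1+N-AS against APP/PS1, 0 genes passed, or 0.0%, while 1653 had an unadjusted p under 0.05 (8.83%, 0 of the 10 among them) and DESeq2 called 79. Between APP/PS1+N-AS and WT, 35 genes or 0.187% passed, and again 0 of the 10. Without APP/PS1+N-AS 3, 116 genes passed in that comparison and 0 in APP/PS1+N-AS against APP/PS1. At an unadjusted p under 0.05, 17.2% of the genes tested were found in APP/PS1 against WT and 6.73% in APP/PS1+N-AS against WT, and Hspa5 was the 1 gene of the 10 among them in both. Groups did not overlap in 14.9% of the genes tested in APP/PS1 against WT, in 12.7% in APP/PS1+N-AS against APP/PS1 and in 8.81% in APP/PS1+N-AS against WT, and in 2, 0 and 0 of the 10. Over the 10 genes the median log2 difference was 0.025, 0.080 and 0.032 in the 3 comparisons, and over all genes tested −0.074, −0.0089 and −0.038. A difference that did not pass is not thereby shown to be absent. The comparisons share libraries and are not independent of each other.

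**Figure D1:**
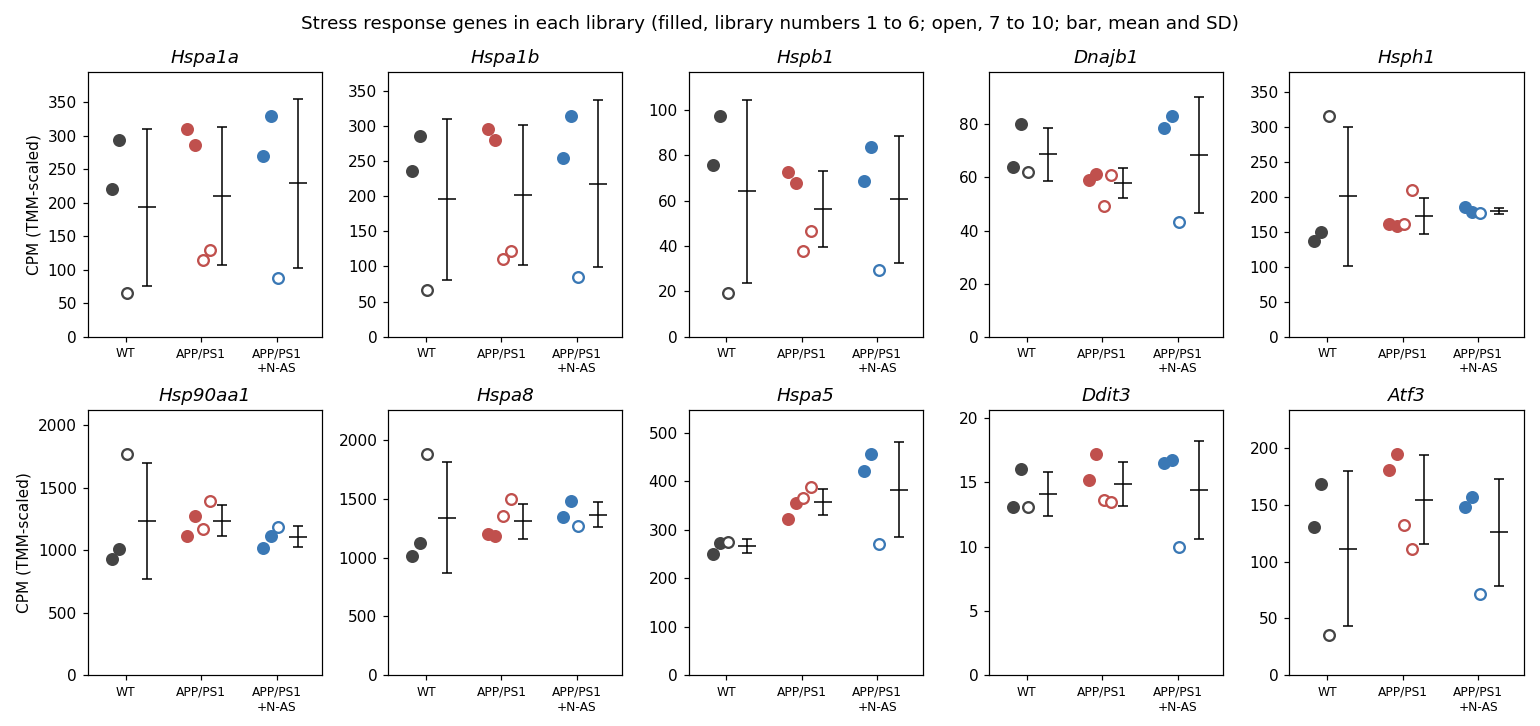
Level of each gene in CPM (vertical axes, from 0) in every library of the 3 groups, with the mean and SD beside the points. Filled points are library numbers 1 to 6 and open points 7 to 10. The open points of Hspa1a, Hspa1b and Hspb1 lie below all filled points, and those of Hsph1, Hsp90aa1 and Hspa8 are highest in WT 3.

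Hspa1a and Hspa1b encode the stress-inducible cytosolic Hsp70, a chaperone that is scarce in resting cells. Hspa1a had 220.5, 294 and 64.8 CPM in WT 1, 2 and 3, 309.8, 287, 114 and 129 CPM in APP/PS1 1 to 4, and 269.7, 329 and 87.8 CPM in APP/PS1+N-AS 1, 2 and 3. WT 3, APP/PS1 3 and 4 and APP/PS1+N-AS 3 were low, and the groups overlapped. Hspa1b had nearly the same values, at 235, 285 and 66.00 CPM in WT, 295, 280.1, 110.1 and 121 CPM in APP/PS1 and 254, 314 and 85.3 CPM in APP/PS1+N-AS. Group means of Hspa1b were 195 ± 115 (SD, n = 3), 202 ± 99.5 (n = 4) and 218 ± 119 CPM (n = 3), so that the SD within a group was far larger than any difference between the means. The log2 difference of Hspa1a was 0.12 (SE 0.57, adjusted p = 0.94) in APP/PS1 against WT, 0.13 (SE 0.56, adjusted p = 0.967) in APP/PS1+N-AS against APP/PS1 and 0.25 (SE 0.60, adjusted p = 0.983) in APP/PS1+N-AS against WT. Without WT 3, the first was −0.29 (adjusted p = 0.796). Leaving out APP/PS1+N-AS 3, that of APP/PS1+N-AS was 0.52 (adjusted p = 0.836) against APP/PS1 and 0.66 (adjusted p = 0.754) against WT. Hspa1b behaved alike, with log2 differences of 0.046, 0.11 and 0.16 in the 3 comparisons. Without APP/PS1+N-AS 3, Hspa1b was 0.50 (adjusted p = 0.842) against APP/PS1 and 0.56 (adjusted p = 0.789) against WT.

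Much of the spread of both genes lay between library numbers. In numbers 1 to 6, Hspa1a ranged from 220.5 to 329 CPM, and in 7 to 10 from 64.8 to 129 CPM, without overlap. At equal group, numbers 7 to 10 differed from 1 to 6 by a log2 value of −1.62 (SE 0.16) in Hspa1a and −1.62 (SE 0.15) in Hspa1b, whereas the median over all genes tested was 0.0041 and the median size 0.23. Of the 18727 genes tested, 48 had a value as low as that of Hspa1b or lower. The log2 difference of Hspa1a between APP/PS1 and WT was 0.23 within numbers 1 to 6 and 0.91 within 7 to 10, where WT has 1 library, and with a term for the library numbers it was 0.50 (adjusted p = 0.143). That of Hspa1b was 0.15 within numbers 1 to 6 and 0.81 within 7 to 10, and with the term 0.41 (adjusted p = 0.182). Without WT 3, Hspa1b was −0.36 (adjusted p = 0.736), so that for both genes the sign without WT 3 was opposite to that within the library numbers. Between APP/PS1+N-AS and APP/PS1, the sign of Hspa1a turned to −0.21 (adjusted p = 0.696) with the term and −0.14 (adjusted p = 0.897) with the replicate block, and it was 0.00050 within numbers 1 to 6 and −0.47 within 7 to 10. Hspa1b turned likewise, to −0.21 (adjusted p = 0.661) and −0.15 (adjusted p = 0.881), and was −0.025 within numbers 1 to 6 and −0.44 within 7 to 10. In APP/PS1+N-AS against WT, Hspa1a was 0.23 within numbers 1 to 6 and 0.44 within 7 to 10, and Hspa1b 0.13 within numbers 1 to 6 and 0.37 within 7 to 10. The sign of this comparison turned without WT 3, to −0.16 (adjusted p = 0.936) in Hspa1a and −0.25 (adjusted p = 0.888) in Hspa1b, and without APP/PS1+N-AS 2, to −0.10 and −0.19. A ratio within each library does not depend on scaling but holds the shifts of both genes, and Hspa8 itself was higher in numbers 7 to 10 than in 1 to 6 at equal group, by 0.32 (SE 0.16). For each read of Hspa8 there were 0.190 to 0.254 reads of Hspa1b in numbers 1 to 6 and 0.0351 to 0.0815 in 7 to 10.

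Hspa1a (chr17:34969190-34972156, minus strand, mm10) and Hspa1b (chr17:34956436-34959238, minus strand) are neighbouring copies of 1 exon each in the GENCODE M21 annotation. Their transcripts were compared in stretches of 100 bases. Of those of Hspa1a 47.1% also occur in Hspa1b, and of those of Hspa1b 49.9% in Hspa1a. A read from a shared stretch cannot be assigned by its own bases, though the other read of its pair may differ. How such reads were counted is not stated. Reads of Hspa1a per read of Hspa1b were 0.938 to 1.07 in the 10 libraries, so the counts of either gene on its own are uncertain. With their reads summed, the log2 differences were 0.084, 0.12 and 0.20 in the 3 comparisons. Hspa1a also overlaps Gm20481 on the opposite strand, and whether the counting used strand is not stated.

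The bases before the start of both genes are shown because the counts of the pair moved together (RefSeq, GRCm38.p6, 250 bases each, 5′ to 3′). Capitals mark GAANNTTC, a pair of inverted heat shock element units that reads the same on both strands. Hspa1a lies at chr17:34972157-34972406, minus strand, and Hspa1b at chr17:34959239-34959488, minus strand.
Hspa1a: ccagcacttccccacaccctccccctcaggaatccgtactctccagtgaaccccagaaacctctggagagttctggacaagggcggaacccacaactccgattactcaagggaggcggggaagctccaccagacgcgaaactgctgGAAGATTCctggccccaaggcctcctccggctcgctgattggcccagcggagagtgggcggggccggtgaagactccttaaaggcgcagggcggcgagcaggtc
Hspa1b: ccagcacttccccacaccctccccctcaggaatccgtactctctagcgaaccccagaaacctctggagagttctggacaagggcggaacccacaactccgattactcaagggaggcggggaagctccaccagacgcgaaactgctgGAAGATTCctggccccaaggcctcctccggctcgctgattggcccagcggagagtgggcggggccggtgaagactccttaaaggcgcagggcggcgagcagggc
Counted from 1 at the 5′ end of the printed stretch, with the base of Hspa1a first, they differ by C44T, T47C and T249G. Promoters of 8 of the 10 genes were matched in the RefSeq table, and those of Hsp90aa1 and Hspa8 were not. GAANNTTC was found in the 250 bases before the start in 6.69% of 32851 promoters and TTCNNGAA, the other arrangement of the pair, in 7.17%. Either arrangement was found in 12.8% of promoters, in those of Hspa1a, Hspa1b, Hspb1 and Hsph1, and in none of those of Dnajb1, Hspa5, Ddit3 and Atf3. A match is a description of the letters only.

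Hspb1 encodes Hsp27, a small heat shock protein that holds unfolded proteins in a soluble state. Its level was 75.8, 97.2 and 19.1 CPM in WT, 72.6, 67.7, 37.7 and 46.4 CPM in APP/PS1 and 68.5, 83.8 and 29.4 CPM in APP/PS1+N-AS. It was low in numbers 7 to 10, where the highest library had 46.4 CPM, and high in 1 to 6, where the lowest had 67.7 CPM, and the groups overlapped. The log2 difference was −0.19 (SE 0.49, adjusted p = 0.888) in APP/PS1 against WT, 0.11 (SE 0.49, adjusted p = 0.965) in APP/PS1+N-AS against APP/PS1 and −0.075 (SE 0.53, adjusted p = 0.996) in APP/PS1+N-AS against WT. Without APP/PS1+N-AS 3, Hspb1 was 0.45 (adjusted p = 0.844) against APP/PS1 and 0.27 (adjusted p = 0.892) against WT. In APP/PS1 against WT the direction depended on the libraries, with −0.29 within numbers 1 to 6 and 1.13 within 7 to 10, −0.62 (adjusted p = 0.373) without WT 3 and 0.24 (adjusted p = 0.642) with the term for library numbers. The sign of APP/PS1+N-AS against APP/PS1 turned to −0.21 (adjusted p = 0.808) with the term and −0.069 (adjusted p = 0.973) with the replicate block, and was 0.11 within numbers 1 to 6 and −0.51 within 7 to 10. Against WT, APP/PS1+N-AS was −0.18 within numbers 1 to 6 and 0.62 within 7 to 10. At equal group, numbers 7 to 10 differed from 1 to 6 by −1.30 (SE 0.23). Of the 10 genes, 3 were lower in 7 to 10 than in 1 to 6 without overlap (Hspa1a, Hspa1b and Hspb1) and 0 were higher, against 8.46% of all genes tested in either direction. Hspa1a and Hspa1b share sequence, as given above, so their counts are not independent of each other. The stretch of 140 bases before the start of Hspb1 (chr5:135887779-135887918, plus strand) holds GAANNTTC at more than 1 place.
Hspb1: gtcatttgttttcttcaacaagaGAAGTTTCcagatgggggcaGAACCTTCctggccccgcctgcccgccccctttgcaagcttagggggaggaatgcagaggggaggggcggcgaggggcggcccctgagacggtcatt

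Dnajb1 encodes Hsp40, a cochaperone that delivers unfolded proteins to Hsp70. It had 63.8, 80.2 and 62.1 CPM in WT, 59.2, 61.3, 49.4 and 61.03 CPM in APP/PS1 and 78.7, 83.1 and 43.3 CPM in APP/PS1+N-AS. All APP/PS1 libraries lay below all WT libraries, and Hspa5 was the other of the 10 genes whose APP/PS1 and WT libraries did not overlap. The difference did not pass the test, at a log2 value of −0.25 (SE 0.21, adjusted p = 0.607), and all 4 APP/PS1 libraries were lower. Against APP/PS1, APP/PS1+N-AS differed by 0.25 (SE 0.21, adjusted p = 0.77), with 0.42 within numbers 1 to 6 and −0.34 within 7 to 10. Its difference between APP/PS1+N-AS and WT was −0.0066 (SE 0.22, adjusted p = 0.996), and without APP/PS1+N-AS 3, the lowest library of all, it was 0.26 (adjusted p = 0.678) and that against APP/PS1 0.50 (adjusted p = 0.724). Dnajb1 was −0.25 within numbers 1 to 6 and −0.18 within 7 to 10 in APP/PS1 against WT, and 0.18 within numbers 1 to 6 and −0.52 within 7 to 10 in APP/PS1+N-AS against WT. Leaving out any 1 library gave −0.31 to −0.12 in APP/PS1 against WT and 0.080 to 0.50 in APP/PS1+N-AS against APP/PS1.

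Hsph1 encodes Hsp110, which exchanges the nucleotide of Hsp70. Its level was 137, 150.3 and 316 CPM in WT, 162, 158, 161 and 211 CPM in APP/PS1 and 185, 179 and 177 CPM in APP/PS1+N-AS. WT 3 had the highest level of the 10 libraries and the other 2 WT libraries the lowest, so that Hsph1 was high in the library where Hspa1a was lowest. The summed neuron markers without Meg3 were highest in WT 3 as well (7014 CPM), against 3453 and 3530 CPM in WT 1 and 2. Their part in the values of Hsph1 was not tested. In APP/PS1 against WT the log2 difference was −0.22 (SE 0.26, adjusted p = 0.732) and, without WT 3, 0.28 (adjusted p = 0.327). Between APP/PS1+N-AS and APP/PS1 it was 0.062 (SE 0.26, adjusted p = 0.965), and between APP/PS1+N-AS and WT −0.16 (SE 0.28, adjusted p = 0.965). Without APP/PS1+N-AS 3, Hsph1 was 0.086 (adjusted p = 0.967) against APP/PS1 and −0.11 (adjusted p = 0.935) against WT. The sign differed between the ranges of library numbers, but within 7 to 10 WT 3 is the only WT library and APP/PS1+N-AS 3 the only one of its group. In APP/PS1 against WT, Hsph1 was 0.16 within numbers 1 to 6 and −0.78 within 7 to 10. It was 0.19 within numbers 1 to 6 and −0.055 within 7 to 10 in APP/PS1+N-AS against APP/PS1. The values were 0.34 within numbers 1 to 6 and −0.83 within 7 to 10 in APP/PS1+N-AS against WT. Without WT 3, Hsph1 in APP/PS1+N-AS against WT was 0.34 (adjusted p = 0.43). A stretch of 30 bases before a RefSeq start of Hsph1 (chr5:149636352-149636381, minus strand) holds TTCNNGAA, in capitals. By GENCODE M21, where Hsph1 starts further upstream, 25 of these 30 bases lie in an exon.
Hsph1: tgggtagaatctTTCTCGAAggctcgagaa

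Hsp90aa1 encodes the inducible form of cytosolic Hsp90, which stabilises kinases and receptors, and Hspa8 the constitutive Hsc70, which folds new proteins and uncoats vesicles. Hsp90aa1 had 925, 1008 and 1766 CPM in WT, 1111, 1272, 1166 and 1395 CPM in APP/PS1 and 1017, 1116 and 1184 CPM in APP/PS1+N-AS. The levels of Hspa8 were 1016, 1121 and 1879.9 CPM in WT, 1200.01, 1179.98, 1351 and 1500.1 CPM in APP/PS1 and 1342, 1481 and 1271 CPM in APP/PS1+N-AS. Both genes were highest in WT 3 and lowest in WT 1, and WT alone spanned the range of the other groups. The neuron markers without Meg3 also summed highest in WT 3 (7014 CPM), against 3453 and 3530 CPM in WT 1 and 2. Their part in the values of both genes was not tested. Hsp90aa1 differed by a log2 value of 0.0037 (SE 0.24, adjusted p = 0.996) between APP/PS1 and WT, by −0.16 (SE 0.24, adjusted p = 0.881) between APP/PS1+N-AS and APP/PS1, and by −0.16 (SE 0.25, adjusted p = 0.957) between APP/PS1+N-AS and WT. For Hspa8 these values were −0.034 (SE 0.23, adjusted p = 0.959), 0.061 (SE 0.23, adjusted p = 0.959) and 0.027 (SE 0.25, adjusted p = 0.996). The library APP/PS1+N-AS 3 was not an extreme of either gene, and without it Hsp90aa1 was −0.20 (adjusted p = 0.884) against APP/PS1 and −0.18 (adjusted p = 0.867) against WT. Hspa8 was 0.12 (adjusted p = 0.939) against APP/PS1 and 0.11 (adjusted p = 0.929) against WT on leaving it out. Leaving out WT 3, Hsp90aa1 was 0.36 (adjusted p = 0.239) in APP/PS1 against WT and 0.20 (adjusted p = 0.658) in APP/PS1+N-AS against WT, and Hspa8 0.30 (adjusted p = 0.355) and 0.36 (adjusted p = 0.452). The sign thus turned for Hspa8 in the first of these comparisons and for Hsp90aa1 in the second. Hsp90aa1 was 0.30 within numbers 1 to 6 and −0.47 within 7 to 10 in APP/PS1 against WT, −0.16 within numbers 1 to 6 and −0.11 within 7 to 10 in APP/PS1+N-AS against APP/PS1 and 0.14 within numbers 1 to 6 and −0.58 within 7 to 10 in APP/PS1+N-AS against WT. In the same order, Hspa8 was 0.16 within numbers 1 to 6 and −0.40 within 7 to 10, 0.24 within numbers 1 to 6 and −0.16 within 7 to 10, and 0.40 within numbers 1 to 6 and −0.56 within 7 to 10. Hspa8 contains the small nucleolar RNA genes Snord14c, Snord14d and Snord14e on its own strand, and how reads there were assigned is not stated.

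Hspa5 encodes BiP, the Hsp70 of the ER and a central target of the unfolded protein response. Its level was 249.95, 273 and 275 CPM in WT, 322, 356, 364 and 387 CPM in APP/PS1 and 421, 455 and 271 CPM in APP/PS1+N-AS. All 4 APP/PS1 libraries lay above all WT libraries, whereas APP/PS1+N-AS held both the highest library of all and, in library 3, a level within WT. Means were 266 ± 13.8 (SD, n = 3), 357 ± 26.9 (n = 4) and 382 ± 98.1 CPM (n = 3). The log2 difference between APP/PS1 and WT was 0.43 (SE 0.19), with an unadjusted p of 0.044 and an adjusted p of 0.274, and it was higher in 4 of 4 APP/PS1 libraries. It was 0.37 within numbers 1 to 6 and 0.45 within 7 to 10. Leaving out any 1 library gave 0.38 to 0.47.

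Between APP/PS1+N-AS and APP/PS1, Hspa5 differed by 0.10 (SE 0.18, adjusted p = 0.912), and without APP/PS1+N-AS 3 by 0.30 (adjusted p = 0.724). The ranges of library numbers gave opposite signs here, at 0.37 in 1 to 6 and −0.47 in 7 to 10. Between APP/PS1+N-AS and WT the log2 difference was 0.52 (SE 0.20), with an unadjusted p of 0.0235 and an adjusted p of 0.65. Without APP/PS1+N-AS 3 it was 0.75 (adjusted p = 0.147). It was 0.74 within numbers 1 to 6 and −0.022 within 7 to 10, with 1 library a side in the latter. In a fit of library numbers 1 to 6 only, which was chosen after seeing the data, it was 0.70 (adjusted p = 0.0413), the 1 case among the alternatives run in which any of the 10 genes passed the threshold. That fit called 437 genes in this comparison, against 35 in the fit over all libraries. The sex, the summed microglia markers and the library numbers differ between these libraries as given above, and their part in the values of Hspa5 was not tested.

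The ER stress element (CCAAT and CCACG with 9 bases between them, searched on both strands) was found before the RefSeq start in 0.113% of promoters, Hspa5 among them. It is shown in capitals in 30 bases at chr2:34772020-34772049, plus strand. By GENCODE M21, where Hspa5 starts further upstream at position 34771970, all 30 lie after the start and in an exon.
Hspa5: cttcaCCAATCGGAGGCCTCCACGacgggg

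**Figure D2:**
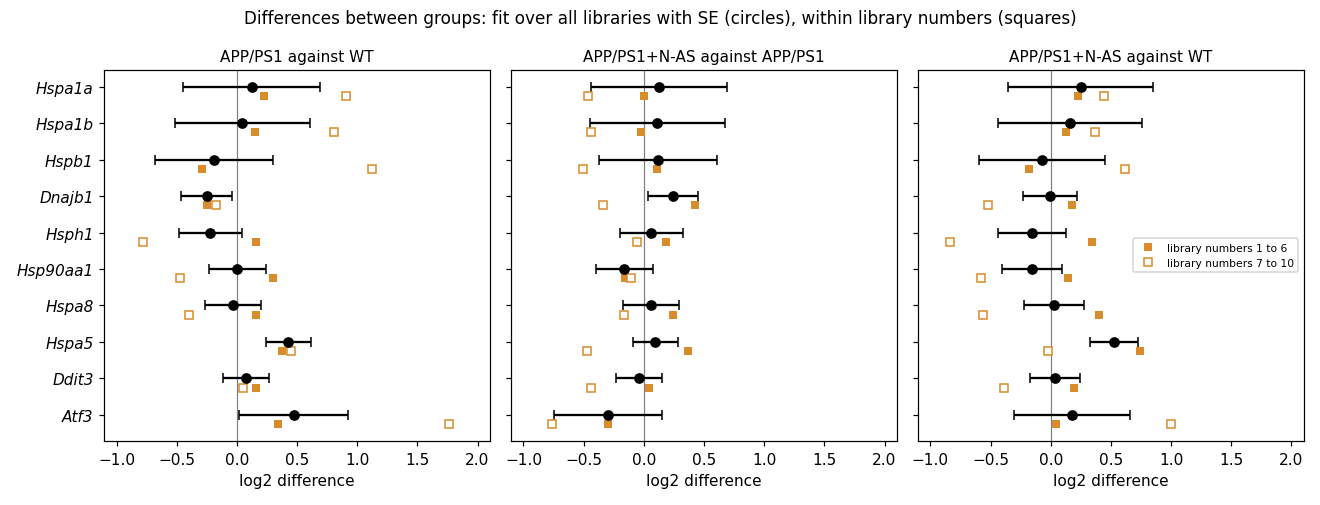
Log2 difference of each gene (horizontal axes) in the 3 comparisons. Circles with bars are the edgeR estimate over all libraries and its SE, and squares the difference of mean log2 CPM within library numbers 1 to 6 (filled) and 7 to 10 (open). The filled and open squares of Hspb1, Hsph1, Hsp90aa1 and Hspa8 lie on opposite sides of 0 in APP/PS1 against WT.

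Ddit3 encodes CHOP, a transcription factor of sustained ER stress that can lead to cell death. It had 13.1, 16.04 and 13.1 CPM in WT, 15.2, 17.2, 13.6 and 13.5 CPM in APP/PS1 and 16.5, 16.8 and 9.97 CPM in APP/PS1+N-AS. The groups overlapped, and APP/PS1+N-AS 3 was the lowest library. Log2 differences were 0.076 (SE 0.19, adjusted p = 0.885) in APP/PS1 against WT, −0.041 (SE 0.19, adjusted p = 0.969) in APP/PS1+N-AS against APP/PS1 and 0.035 (SE 0.21, adjusted p = 0.994) in APP/PS1+N-AS against WT. In the first of these, leaving out any 1 library gave 0.0005 to 0.19. Leaving out APP/PS1+N-AS 3 gave 0.17 (adjusted p = 0.818) against APP/PS1 and 0.26 (adjusted p = 0.678) against WT. Ddit3 was 0.16 within numbers 1 to 6 and 0.050 within 7 to 10 in APP/PS1 against WT, 0.040 within numbers 1 to 6 and −0.44 within 7 to 10 in APP/PS1+N-AS against APP/PS1 and 0.20 within numbers 1 to 6 and −0.39 within 7 to 10 in APP/PS1+N-AS against WT. Ddit3 overlaps Mars and Gm4189 on the opposite strand at its ends, and the annotation holds a further Ddit3 locus inside it, so its counts are uncertain.

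Atf3 encodes a transcription factor that is induced by the integrated stress response and also, as an immediate early gene, by many other stimuli. Its level was 130.1, 168 and 35.6 CPM in WT, 180.5, 195, 132 and 111 CPM in APP/PS1 and 148, 157 and 71.4 CPM in APP/PS1+N-AS. WT 3 was the lowest library and APP/PS1 2 the highest, 5.46 times as high. The log2 difference was 0.47 (SE 0.45, adjusted p = 0.659) between APP/PS1 and WT, −0.30 (SE 0.45, adjusted p = 0.884) between APP/PS1+N-AS and APP/PS1, and 0.18 (SE 0.48, adjusted p = 0.984) between APP/PS1+N-AS and WT. With a term for the library numbers the first was 0.85 (adjusted p = 0.0907). Without WT 3 it was 0.056 (adjusted p = 0.943), and without WT 2 it was 0.91 (adjusted p = 0.381). Leaving out APP/PS1+N-AS 3, Atf3 in APP/PS1+N-AS was −0.0084 (adjusted p = 0.998) against APP/PS1 and 0.48 (adjusted p = 0.791) against WT. In APP/PS1 against WT the difference was 0.34 within numbers 1 to 6 and 1.76 within 7 to 10. APP/PS1+N-AS differed from APP/PS1 by −0.30 within numbers 1 to 6 and −0.76 within 7 to 10, and by −0.56 (adjusted p = 0.44) with the term, and from WT by 0.044 within numbers 1 to 6 and 1.00 within 7 to 10. Without WT 3 the last comparison gave −0.24 (adjusted p = 0.807). For each read of Ddit3 there were 2.73 reads of Atf3 in WT 3 and 7.16 to 11.9 in the other libraries.

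Levels between genes were compared per kilobase of merged exons. The median over the 10 libraries was 304 CPM per kilobase for Hspa8 and 290.3 for Hsp90aa1, whose ranges overlapped almost entirely. Hspa1b (87.3), Hspa1a (82.6), Hspa5 (80.1), Hspb1 (66.1) and Atf3 (65.1 CPM per kilobase) followed, with ranges that overlapped as well. Hsph1 had 23.3, Dnajb1 19.3 and Ddit3, the lowest, 8.40 CPM per kilobase. The range of Ddit3, up to 10.03, lay below those of the other 9 genes.

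The SD of log2 CPM within groups was 0.96 for Hspa1a, 0.96 for Hspa1b, 0.85 for Hspb1 and 0.77 for Atf3, and 0.31 at the median of all genes tested. For the other 6 genes it was 0.23 (Hspa5) to 0.38 (Hsph1). The more variable genes were the inducible Hsp70 pair, the small heat shock protein and Atf3, and the other chaperones and Ddit3 varied less.

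Genes with the most similar pattern were found by the root mean square difference of gene-centred log2 CPM over the 10 libraries, among 17194 genes with a mean of at least 1 CPM. For Hspa1b these were Hspa1a (0.053), Hspa1l (0.12) and Hspb1 (0.22), where the median over all genes was 0.85. For Hspb1 they were Hspa1b (0.22), Ptgs2 (0.22) and Hspa1a (0.23), with Ptgs2 encoding the inducible cyclooxygenase. Hspa1a and Hspa1b have stretches of sequence in common, as given above, and the part of this in their closeness was not tested. Atf3 was closest to Ppp1r15a (0.10), Rasd1 (0.16) and Adamts1 (0.19). The phosphatase subunit encoded by Ppp1r15a (GADD34) reverses the phosphorylation of eIF2α. The nearest to Hspa5 were Otud1 (0.084), Cd55 (0.10) and Kdm5c (0.10), at a median over all genes of 0.42. All of these were lowest in WT 3 except Otud1, which was lowest in WT 1.

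Other genes of the same pathways were counted in lists. Lists of 47, 6 and 33 genes each had 1 gene that was not tested, and those of 11, 27 and 26 none. Of 46 tested stress chaperones of the cytosol and their cofactors, 7 of them among the 10 genes, 1 passed in APP/PS1 against WT, where 3.47% of all genes did, 0 in APP/PS1+N-AS against APP/PS1 and 0 in APP/PS1+N-AS against WT. The 1 was Cryab, the small heat shock protein αB-crystallin that oligodendrocytes and astrocytes also express, at 28.6 ± 4.54 CPM in APP/PS1 and 64.9 ± 20.4 CPM in WT. Its log2 difference was −1.18 (SE 0.22, adjusted p = 0.0169), lower in 4 of 4 APP/PS1 libraries, and it passed under 11 of 15 alternatives. Without WT 1, WT 2, APP/PS1 3 or APP/PS1 4 it did not pass, at −1.03 (adjusted p = 0.0672), −1.04 (adjusted p = 0.0651), −1.08 (adjusted p = 0.062) and −1.15 (adjusted p = 0.0619). The 10 oligodendrocyte markers summed to 7024, 7156 and 2472 CPM in WT, 4777, 4235, 1980.02 and 2029.7 CPM in APP/PS1, and 3919, 4023 and 2942 CPM in APP/PS1+N-AS, and 3 of 10 were lower in APP/PS1 than in WT at the threshold and 0 higher. All 10 were below 0 in that comparison, with a median log2 difference of −1.34, and 8 had an unadjusted p under 0.05 (17.2% of all genes tested in either direction). Their part in the value of Cryab was not tested. Cryab in APP/PS1+N-AS against APP/PS1 was 0.59 (SE 0.22, adjusted p = 0.517) and Hspb7, a small heat shock protein of muscle, 1.31 (SE 0.50, adjusted p = 0.517). All 10 oligodendrocyte markers were above 0 in that comparison, with a median log2 difference of 0.50, and 0 passed. Fkbp5, a cochaperone of Hsp90 that glucocorticoids induce, in APP/PS1+N-AS against WT was 1.21 (SE 0.27, adjusted p = 0.163) and Dnajb2 −0.45 (SE 0.12, adjusted p = 0.331). The median log2 difference of the list was −0.012, 0.00070 and −0.011 in the 3 comparisons.

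Of 5 tested genes of the heat shock factors and their regulator, 0 passed in each comparison, with medians of −0.22, 0.33 and 0.013. Hsf4 had 7.52 ± 1.10 CPM in APP/PS1 and 11.6 ± 2.07 CPM in WT, a log2 difference of −0.62 (SE 0.17, adjusted p = 0.0759), and Hsf5 −0.56 (SE 0.28, adjusted p = 0.339). With N-AS, in APP/PS1+N-AS against APP/PS1, Hsf4 was 0.38 (SE 0.17, adjusted p = 0.561) and Hsf5 0.53 (SE 0.27, adjusted p = 0.611). Hsf1, the factor of the classical response, was 0.11 (SE 0.23, adjusted p = 0.978) in APP/PS1+N-AS against WT, and Hsf4 −0.24 (SE 0.18, adjusted p = 0.862). The 11 mitochondrial chaperones and proteases had 0 past the threshold in each comparison and medians of 0.065, −0.048 and 0.034. Clpp is a protease of the mitochondrial matrix, and Hspe1, Hspd1, Grpel1 and Hscb are chaperones or cochaperones there. Clpp was −0.32 (SE 0.18, adjusted p = 0.403) and Hspe1 0.27 (SE 0.18, adjusted p = 0.496) in APP/PS1 against WT, and in APP/PS1+N-AS against APP/PS1 Clpp was 0.38 (SE 0.18, adjusted p = 0.58) and Grpel1 −0.29 (SE 0.19, adjusted p = 0.68). The lowest p-values in APP/PS1+N-AS against WT belonged to Hspd1, at −0.21 (SE 0.17, adjusted p = 0.875), and Hscb, at 0.24 (SE 0.21, adjusted p = 0.895).

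Of 32 tested ER chaperones and genes of the unfolded protein response, 1 passed in APP/PS1 against WT, against 3.47% of all genes, and 0 in each of the other comparisons. Sdf2l1, a component of the ER chaperone complex of BiP, had 10.6 ± 1.71 CPM in APP/PS1 and 3.84 ± 0.304 CPM in WT, a log2 difference of 1.46 (SE 0.26, adjusted p = 0.0122), and was higher in 4 of 4 APP/PS1 libraries. It passed under 13 of 15 alternatives, and did not without WT 2, at 1.43 (adjusted p = 0.0502), or with the replicate block, at 1.36 (adjusted p = 0.0639). Whether or not they passed, 29 of 32 had a log2 difference above 0 in APP/PS1 against WT and 31 of 32 in APP/PS1+N-AS against WT. Of all genes tested, 7721 and 8207 of 18727 did. Medians of the list were 0.22, −0.0042 and 0.23. Their summed level was 2979, 3348 and 3508 CPM in WT, 3873, 4034, 4266 and 4335 CPM in APP/PS1, and 4028, 4265 and 3586 CPM in APP/PS1+N-AS. Sdf2l1 in APP/PS1+N-AS against WT was 0.90 (SE 0.27, adjusted p = 0.416) and Xbp1, a transcription factor of the response, 0.39 (SE 0.13, adjusted p = 0.551). Syvn1, a ubiquitin ligase of ER-associated degradation, in APP/PS1+N-AS against APP/PS1 was 0.35 (SE 0.14, adjusted p = 0.534) and Sdf2l1 −0.57 (SE 0.24, adjusted p = 0.544). Microglia markers were also higher in APP/PS1, as given above, and their part was not tested.

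Of 27 tested genes of the integrated stress response, 2 were higher in APP/PS1 than in WT and 0 lower, against 3.47% of all genes in either direction, and 0 passed in the other comparisons. Cebpg, a partner of ATF4, had 40.4 ± 5.08 CPM in APP/PS1 and 27.1 ± 2.31 CPM in WT, a log2 difference of 0.58 (SE 0.13, adjusted p = 0.0334). Ddit4, an inhibitor of mTORC1 that stress induces, differed by 0.93 (SE 0.21, adjusted p = 0.0387). Both were higher in all 4 APP/PS1 libraries than in any WT library. Of the alternatives, chosen for these genes after seeing the data, Cebpg passed under 5 of 15 and Ddit4 under 7 of 15. Leaving out 1 library ended the call of Cebpg except for APP/PS1 1 (adjusted p = 0.0283), with 0.56 without WT 1, 0.65 without WT 2, 0.53 without WT 3, 0.61 without APP/PS1 2, 0.54 without APP/PS1 3 and 0.53 without APP/PS1 4, and that of Ddit4 except for WT 2 (adjusted p = 0.00682), with 0.81 without WT 1, 0.75 without WT 3, 0.90 without APP/PS1 1, 0.88 without APP/PS1 2, 1.01 without APP/PS1 3 and 0.95 without APP/PS1 4. Cebpg also did not pass with the replicate block, at 0.52 (adjusted p = 0.102), in library numbers 1 to 6, at 0.33 (adjusted p = 0.154), with library totals, at 0.62 (adjusted p = 0.0927), or with the 2 groups alone, at 0.59 (adjusted p = 0.0956). Ddit4 also did not pass with the 2 groups alone, at 0.94 (adjusted p = 0.0991), or in library numbers 1 to 6, at 0.83 (adjusted p = 0.0689). Chac1 in APP/PS1+N-AS against APP/PS1 was −0.95 (SE 0.36, adjusted p = 0.519) and Slc7a11, the cystine transporter, 0.49 (SE 0.22, adjusted p = 0.561). Ddit4 was 0.83 (SE 0.22, adjusted p = 0.321) and Cebpg 0.39 (SE 0.13, adjusted p = 0.563) in APP/PS1+N-AS against WT. Medians were 0.23, −0.15 and 0.035.

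The 26 immediate early genes, whose transcription is induced within minutes of a stimulus, had 0 past the threshold in each comparison, with medians of 0.42, −0.24 and 0.20. Whether or not they passed, 24 of 26 had a log2 difference above 0 in APP/PS1 against WT, 9 of them at an unadjusted p under 0.05, and 25 of 26 were below 0 in APP/PS1+N-AS against APP/PS1, 1 of them at an unadjusted p under 0.05. Of all genes tested, 7721 were above 0 in the first comparison, 1554 of them at an unadjusted p under 0.05 (17.2% in either direction), and 9625 below 0 in the second, 758 of them at an unadjusted p under 0.05 (8.83% in either direction). Gem was 1.27 (SE 0.35, adjusted p = 0.0779) and Ier5 0.46 (SE 0.15, adjusted p = 0.141) in APP/PS1 against WT. For APP/PS1+N-AS against APP/PS1, Ier5 was −0.36 (SE 0.15, adjusted p = 0.54) and Egr2 −0.51 (SE 0.24, adjusted p = 0.573), and in APP/PS1+N-AS against WT Gem was 0.85 (SE 0.36, adjusted p = 0.702) and Nfkbia 0.57 (SE 0.35, adjusted p = 0.811). Their summed level was 2563, 3284 and 1415 CPM in WT, 3379.5, 3689, 2986 and 2737 CPM in APP/PS1, and 2964, 3298 and 1877 CPM in APP/PS1+N-AS, with Jun (354 CPM) the most abundant. At equal group, all 26 were lower in library numbers 7 to 10 than in 1 to 6, by a median log2 value of −0.74, and 4 of 26 without overlap. Among the cytosolic chaperones other than the 10 genes, 2 of 39 were higher and 1 lower without overlap, against 8.46% of all genes tested in either direction, and the median over that whole list was 0.091. Between the same libraries, medians were −1.09 for the ependymal and choroid plexus markers, −0.93 for the oligodendrocyte, −0.42 for the endothelial, −0.29 for the infiltrating leukocyte, −0.19 for the oligodendrocyte precursor and −0.18 for the pericyte and smooth muscle markers. They were 0.17 for the microglia, 0.40 for the neuron, 0.46 for the astrocyte and 0.48 for the border macrophage markers. Whether these shifts bear on Hspa1a, Hspa1b, Hspb1 and Atf3 was not tested.

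The remaining marker lists are given for APP/PS1 against WT, each with its most abundant gene, and 3.47% of all genes tested passed there. Of 10 astrocyte markers (Slc1a2, 1925 CPM), 2 were higher and 0 lower, and of 6 oligodendrocyte precursor markers (Bcan, 142 CPM), 0 were higher and 1 lower. None passed of the 10 endothelial (Flt1, 390.4 CPM), 8 pericyte and smooth muscle (Myh11, 569 CPM) or 6 border macrophage markers (Mrc1, 16.97 CPM). The same held for the 14 neuron markers and for 8 of 10 infiltrating leukocyte markers that were tested (Cd3d, 77.2 CPM). The endothelial markers summed to 561 CPM in WT 3 and to 1027 to 1508 CPM in the other libraries. For the pericyte and smooth muscle markers these sums were 518 CPM and 974 to 2081 CPM. The 7 markers of ependyma and choroid plexus (Ttr, 558 CPM) had 0 past the threshold, although 7 of 7 were above 0 with a median log2 difference of 0.99, and summed to 426, 426 and 24.5 CPM in WT, 898, 1235, 905 and 739.96 CPM in APP/PS1, and 634, 847 and 29.9 CPM in APP/PS1+N-AS. The sum was lowest in WT 3 and APP/PS1+N-AS 3, and in the other libraries it consisted mostly of Ttr. Without Ttr the other 6 summed to 22.8 and 29.3 CPM in these libraries and to 50.2 to 87.3 CPM in the others. The comparison of APP/PS1+N-AS with WT had 2 of 18 microglia markers and 1 of 10 astrocyte markers higher, against 0.187% of all genes tested, and 0 markers of the other lists passed. Whether or not they passed, 17 of 18 microglia markers were above 0 in it, with a median log2 difference of 0.95, and 15 had an unadjusted p under 0.05 (6.73% of all genes tested in either direction). In APP/PS1+N-AS against APP/PS1, 0 markers of any list passed. All 18 microglia markers were nevertheless below 0 there, with a median log2 difference of −0.66, and 13 had an unadjusted p under 0.05 (8.83% of all genes tested in either direction) and 12 did not overlap (12.7%), while the lowest adjusted p was 0.478. Below 0 as well were 7 of 7 ependymal and choroid plexus markers (median −0.87) and 8 of 8 infiltrating leukocyte markers (median −0.76). All 10 oligodendrocyte markers were above 0 (median 0.50). In the same order, 2, 0 and 0 of them had an unadjusted p under 0.05.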

How the data were processed

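RNA was depleted of ribosomal RNA and made into stranded libraries, and the authors aligned them with TopHat after paired sequencing. What they deposited are raw counts of reads for each gene symbol and library, without normalization. The submitters' processing notes name mm10 and edgeR. The annotation and the versions are not given in the sources used here. Lines that share a symbol were summed. Counts were filtered (filterByExpr), scaled by TMM and fitted with edgeR 4.0.16 (R 4.3.3) in 1 model of 3 groups, with p-values adjusted over 18727 genes. The prior count of log2 CPM was 2, and mean and SD are of CPM. The fit was tested on simulated data. Reads lack molecular identifiers, so counting error alone understates the error.

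Members and lists were chosen with earlier results of these data known. Beside the 10 genes, the text names from each stress list the genes that passed or, where none did, the pair with the lowest unadjusted p-values, from each marker list its most abundant gene (1 is not reported here), and for 4 of the genes their 3 nearest in pattern. Further microglia markers, named for their ranges, were chosen after seeing the data. Positions are from GENCODE M21. Same-numbered libraries of APP/PS1+N-AS and APP/PS1 correlated at 0.278, 0.142 and 0.309 after group means were removed. APP/PS1 libraries of another number correlated with these APP/PS1+N-AS libraries at up to 0.197, 0.173 and 0.32. This gave no ground to pair them by number, and the main fit held no term for pairing. Alternatives were DESeq2 1.42.0, library totals, upper quartile, no filter, a replicate block, a term for library numbers, the 2 groups compared alone, Hspa1a and Hspa1b summed, each library left out, and library numbers 1 to 6 alone. The last, and all alternatives for the genes of the lists that passed, were chosen after seeing the data.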

Additional observations from a re-analysis of the deposited data

Results flagged for a closer look

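Hsph1 in APP/PS1 4, at 211 CPM, lay apart from the other APP/PS1 libraries (162, 158 and 161 CPM), and the gap to the nearest was 0.939 of the range of the group. The summed endothelial markers in APP/PS1 3, at 1126 CPM, lay below 1235, 1219.7 and 1226 CPM, with a gap of 0.860 of the range. Of 27 genes and lists examined in this group of 4 libraries, 2 stood out in this way, and chance gives about 1 in 20. Groups of 3 libraries were not examined.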

How the results depend on the processing

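Genes called in APP/PS1 against WT numbered 649 and were 1345 with DESeq2, 326 with the replicate block, 1055 with the library number term, 410 with the 2 groups alone and 299 to 923 with 1 library left out (319 without WT 1, 362 without WT 2, 430 without APP/PS1 2 and 299 without APP/PS1 3 or APP/PS1 4). Of the 649, 500 were higher, and this share moved to 862 of 1345 with DESeq2, 549 of 923 without WT 3, 263 of 299 without APP/PS1 3, 261 of 299 without APP/PS1 4 and 478 of 937 in library numbers 1 to 6. For APP/PS1+N-AS against APP/PS1 the 0 genes called became 79 with DESeq2, 11 in library numbers 1 to 6 (chosen after seeing the data) and 0 to 1 with 1 library left out (1 without APP/PS1+N-AS 1). For APP/PS1+N-AS against WT the 35 became 188 with DESeq2, 5 with the block, 64 with the term, 2 with the 2 groups alone, 437 in numbers 1 to 6 and 1 to 116 with 1 library left out (5, 1 and 57 without WT 1, 2 and 3, and 3, 2 and 116 without APP/PS1+N-AS 1, 2 and 3). Same-numbered libraries correlated at −0.485, 0.441 and −0.010 in APP/PS1 and WT and at −0.136, 0.348 and 0.24 in APP/PS1+N-AS and WT, so the numbers were not taken to pair these groups. Of the 35, 33 were higher, against 39 of 57 without WT 3 and 248 of 437 in numbers 1 to 6. The cause was not tested.

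Among the alternatives run, none of the 10 genes passed except Hspa5 in numbers 1 to 6 (APP/PS1+N-AS against WT, 0.70), and the replicate block changed no call among them. Signs of log2 differences reversed as follows. With library totals, in APP/PS1+N-AS against WT Hspa8 −0.0072. Without the filter, in APP/PS1+N-AS against WT Dnajb1 0.022. Under the replicate block, in APP/PS1 against WT Hspb1 0.11, Hsp90aa1 −0.011, in APP/PS1+N-AS against APP/PS1 Hspa1a −0.14, Hspa1b −0.15, Hspb1 −0.069, in APP/PS1+N-AS against WT Hspb1 0.045. Given the library number term, in APP/PS1 against WT Hspb1 0.24, Hsp90aa1 −0.010, in APP/PS1+N-AS against APP/PS1 Hspa1a −0.21, Hspa1b −0.21, Hspb1 −0.21, in APP/PS1+N-AS against WT Hspb1 0.027. Using numbers 1 to 6 alone, in APP/PS1 against WT Hsph1 0.12, Hspa8 0.12, in APP/PS1+N-AS against APP/PS1 Hspa1b −0.023, Ddit3 0.030, in APP/PS1+N-AS against WT Dnajb1 0.13, Hsph1 0.30, Hsp90aa1 0.10, Atf3 −0.0076. Leaving out 1 library gave, in APP/PS1 against WT, Hsp90aa1 −0.17 to 0.36, Hspb1 −0.62 to 0.26, Hspa1a −0.29 to 0.57, Hspa1b −0.36 to 0.43, Hspa8 −0.20 to 0.30, Hsph1 −0.43 to 0.28. Between APP/PS1+N-AS and APP/PS1 it gave Ddit3 −0.17 to 0.17, Hspa1a −0.23 to 0.52, Hspa1b −0.24 to 0.50, Hspb1 −0.19 to 0.45, Hspa8 −0.0054 to 0.12, Hspa5 −0.050 to 0.30. The same in APP/PS1+N-AS against WT gave Hspb1 −0.51 to 0.38, Hspa8 −0.14 to 0.36, Ddit3 −0.075 to 0.26, Dnajb1 −0.16 to 0.26, Hspa1a −0.16 to 0.70, Hspa1b −0.25 to 0.56, Atf3 −0.24 to 0.62, Hsph1 −0.37 to 0.34, Hsp90aa1 −0.33 to 0.20. Of the 200 values with 1 library left out, 49 reversed, and 0 of 30 did so with DESeq2, with the upper quartile or with the 2 groups alone. With 3 or 4 libraries a group, 1 library could set the sign of these values. The cause was not tested.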

Other observations

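The number of gene symbols without any read did not follow the total count. It was 566, 3305 and 1013 in WT 1, 2 and 3, 3985, 3193, 838 and 837 in APP/PS1 1 to 4, and 3146, 2940 and 1740 in APP/PS1+N-AS 1, 2 and 3. WT 1, which had the lowest total count of all libraries, thus had the fewest symbols at 0, and library numbers 7 to 10 had fewer than 2 to 6.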
